A study of Mus musculus with 5 samples.

Results

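The genes of the cAMP and G protein machinery were followed in striatum of Adcy5 R419W knock-in mice and wild-type littermates. Members were chosen by gene symbol (families Gna, Gnb, Gng, Ric8, Adcy, Pde, Prka, Pki, Akap and Rapgef) and by position, not by level. In the GENCODE M21 annotation of GRCm38, 112 genes match these symbols, and 102 of them are protein coding. A feature of their own was found for 60 (59 coding genes and the pseudogene Gng2-ps1), out of 12586 genes named in the same way. Of the 60 members, 48 passed the filter on low counts and were tested among 13665 features. A further 18 matching genes lay only on features shared with other genes, and 34 had no feature over their exons.

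The data are gene counts from RNA sequencing of striatal homogenates of adult mice. The libraries fall into 2 groups by genotype: wild-type littermates (WT, n = 3, replicates 1, 2 and 3) and mice of the line carrying the R419W allele of Adcy5 (KI, n = 2, replicates 1 and 3). No treatment is named in the labels, and they do not state the zygosity of the allele, the sex or the exact age. A knock-in allele sits in the gene itself and is not tied to 1 cell type. Whether each library came from its own animal is not stated, and p-values then reflect only the spread among these 5 libraries, technical spread included. In homogenate, fewer cells of a type and less RNA per cell cannot be told apart.

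A receptor that binds its ligand activates a heterotrimeric G protein, whose alpha subunit and beta-gamma pair then separate and act on effectors. Adenylyl cyclases make cAMP under this control, phosphodiesterases break cAMP and cGMP down, and cAMP acts through protein kinase A, the Rapgef exchange factors known as Epac and cyclic nucleotide-gated channels. In spiny projection neurons of the striatum, dopamine D1 receptors and the adenosine receptor Adora2a raise cAMP through the olfactory-type G protein (Gnal with Gnb and Gng7 subunits) and Adcy5, and D2 receptors lower it through inhibitory alpha subunits.

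The mutated gene, Adcy5, was not read. Its locus is on chromosome 16 from 35154877 to 35305738 on the plus strand of GRCm38, and 0 features cover its exons, so its level gives no check of the genotype labels. By where the counts fall, the reads appear to lie at GRCm38 positions, while the counted features lie at GRCm39 positions. The mitochondrial features (37) held 0 counts, which a shift of positions does not account for. Each gene is therefore named by the GRCm38 exons under a feature, and the label in the file equals that name for 8 of the 60 members. A feature usually reads a stretch of a gene: the tested members had a median of 289 exon bases covered (35 to 4992), 13 were read on noncoding exon alone, and 8 shared their feature with a noncoding gene. Levels are in CPM, counts divided by the library size after scaling by the trimmed mean of M values, and each is the level of the covered stretch. Counting ignored strand, and many of these features also span introns or sequence outside the gene, whose fragments cannot be separated from exon fragments.

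Promoter windows are shown for 3 of the 4 members with an unadjusted p under 0.05 on their longest stretch (Gng4, Ric8b and Pde10a). A window is also shown for Prkar1a, a regulatory subunit of the cAMP-dependent kinase. Its unadjusted edgeR p was 0.0709, and it is the only member in which the full element below was found. They were searched for the cAMP response element, the DNA element bound by CREB family factors that protein kinase A activates. The search used TGACGTCA and its first 5 letters TGACG, each on both strands, and every TGACGTCA also holds TGACG. Windows ran from 250 bases before to 50 after each transcript start in RefSeq (GRCm38.p6), and 47 of the 60 members matched by symbol with 78 windows. The 250 bases before the start are printed 5′ to 3′ on the plus strand, with TGACG, its reverse complement and their joined form in capitals.
Prkar1a, chr11:109650699-109650948: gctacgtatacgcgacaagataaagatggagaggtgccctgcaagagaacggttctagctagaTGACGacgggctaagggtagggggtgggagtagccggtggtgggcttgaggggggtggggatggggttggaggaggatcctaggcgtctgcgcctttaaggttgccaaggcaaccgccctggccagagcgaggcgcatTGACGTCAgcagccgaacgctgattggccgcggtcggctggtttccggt
Gng4, chr13:13784057-13784306: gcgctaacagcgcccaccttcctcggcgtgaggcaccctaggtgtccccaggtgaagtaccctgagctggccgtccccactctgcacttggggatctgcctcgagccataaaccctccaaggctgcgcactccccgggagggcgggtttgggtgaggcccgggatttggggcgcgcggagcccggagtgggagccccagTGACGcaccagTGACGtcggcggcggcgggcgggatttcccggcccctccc
Ric8b, chr10:84917363-84917612: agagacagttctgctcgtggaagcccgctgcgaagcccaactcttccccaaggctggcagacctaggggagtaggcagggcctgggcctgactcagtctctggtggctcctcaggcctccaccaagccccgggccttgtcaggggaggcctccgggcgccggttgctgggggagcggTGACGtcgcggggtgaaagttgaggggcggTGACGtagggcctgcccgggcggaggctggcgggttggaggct
Pde10a, chr17:8801495-8801744: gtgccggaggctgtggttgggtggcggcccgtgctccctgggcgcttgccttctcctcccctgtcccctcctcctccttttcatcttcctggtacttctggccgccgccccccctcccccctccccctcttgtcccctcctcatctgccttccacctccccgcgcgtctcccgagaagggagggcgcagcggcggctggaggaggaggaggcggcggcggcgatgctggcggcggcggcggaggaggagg

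The full 8-base element was found in 1 of the 47 members, Prkar1a (2.13%, against 2.03% of all genes in the table). It lay in 2 Prkar1a windows, which overlap, and was absent from the other windows of that gene. In the window shown it begins at position -49 from the start, with a further TGACG at position -187. TGACG alone was in 17 members (36.2%, against 23% of all genes) and in 21 of their windows (26.9%, against 20.8% of all windows). In Gng4 it begins at positions -51 and -40 of the window shown and is absent from the other window. In Ric8b it begins at -73 and -43, and neither window of Pde10a held it. The 14 tested members with TGACG had a median log2 fold change of 0.06, and the 24 matched without it had -0.01. These are matches of letters and no measure of binding.

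Total counts lay between 6595105 and 7910584 per library. Summed cortical neuron markers (4 of 11 with a feature, led by Slc17a7) were at 82.2, 322.4 and 245.8 CPM in WT replicates 1, 2 and 3 and at 110.2 and 27.8 in KI replicates 1 and 3. Thalamic markers (6 of 7) were highest in WT replicate 1, at 316.3 CPM against 58 to 170.7 elsewhere. Choroid plexus markers (4 of 8) stood at 2608 CPM in KI replicate 3 against 291.3 to 411.0 elsewhere, of which Ttr gave 2086. Spiny projection neuron markers (8 of 17, mostly Penk) were at 8103 to 10247 CPM in WT and at 6812 and 7487 in KI. Drd1, Drd2 and Adora2a had no feature of their own, and Meis2 had at most 3 counts in every library.

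**Figure D1:**
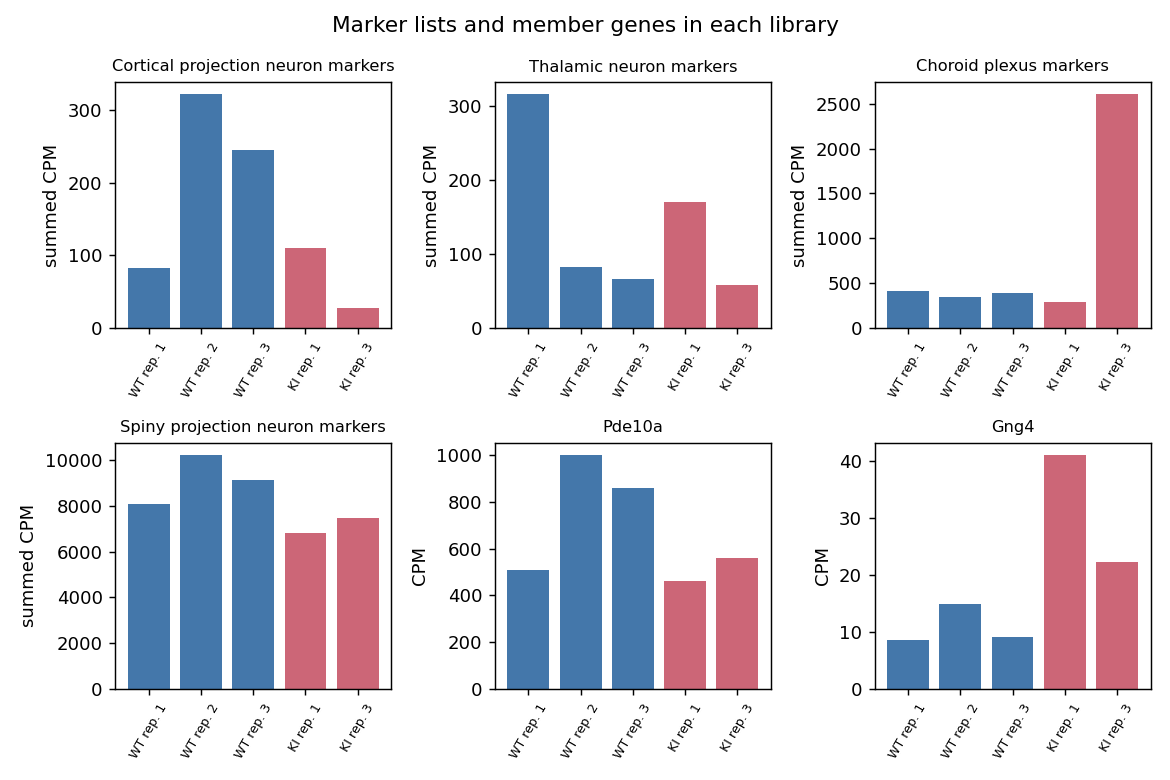
Bars give the summed CPM of 4 marker lists and the CPM of Pde10a and Gng4 in each of the 5 libraries (blue, WT; red, KI; each axis starts at 0). Cortical markers were at 82.2 CPM in WT replicate 1 and at 322.4 and 245.8 in the other WT libraries, and Pde10a at 509.9 against 1002 and 861.6.

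No member passed the threshold. By the quasi-likelihood test of edgeR over all 13665 features, 0 of the 48 tested members had an adjusted p under 0.05, against 14 features, or 0.102%, overall (6 higher and 8 lower in KI, or 9 and 7 of 16 with unscaled library totals). On the longest stretch of each gene, 4 members had an unadjusted p under 0.05 (8.33%, against 6.39% of all features). Gng4 and Gnb4 had higher and Pde10a and Ric8b lower fitted levels in KI. DESeq2 called 1 member, Gng4, where it called 1.83% of the 6710 features to which it gave an adjusted p, and limma voom called 0 members and 0.373% of features. Under other settings, 1 member passed an adjusted p of 0.10 (0.49% of features), 3 passed 0.05 without the filter on low counts (0.744%), 2 without WT replicate 1 (1.23%) and 5 without both WT replicate 1 and KI replicate 3 (3.67%). The last setting was chosen after seeing the data and leaves 1 KI library, assumed to vary like the 2 WT libraries. Log2 fold changes lay above 0 for 23 members and below 0 for 25, with a median of -0.02 against -0.00 for all features. Of the 48, 29 lay within 0.25 of 0 on the log2 scale, whereas 52.5% of all features did.

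On the longest stretch of each gene, both KI libraries lay above all 3 WT libraries for 8 members (background 11.3%). They lay below them for 7 (background 11.1%). Together that is 31.2% of the members against 22.4% of all features. The protein kinase A subunits lay on the higher side (2 of 3), as did 3 of 10 Pde genes, and the other 3 on that side were Gnaz, Gnb4 and Gng4. On the lower side were Gnb2, Gnb5, Gng12, Ric8b, Adcy4, Akap13 and Rapgefl1. No step of the pathway held more than 1 member with an unadjusted p under 0.05.

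**Figure D2:**
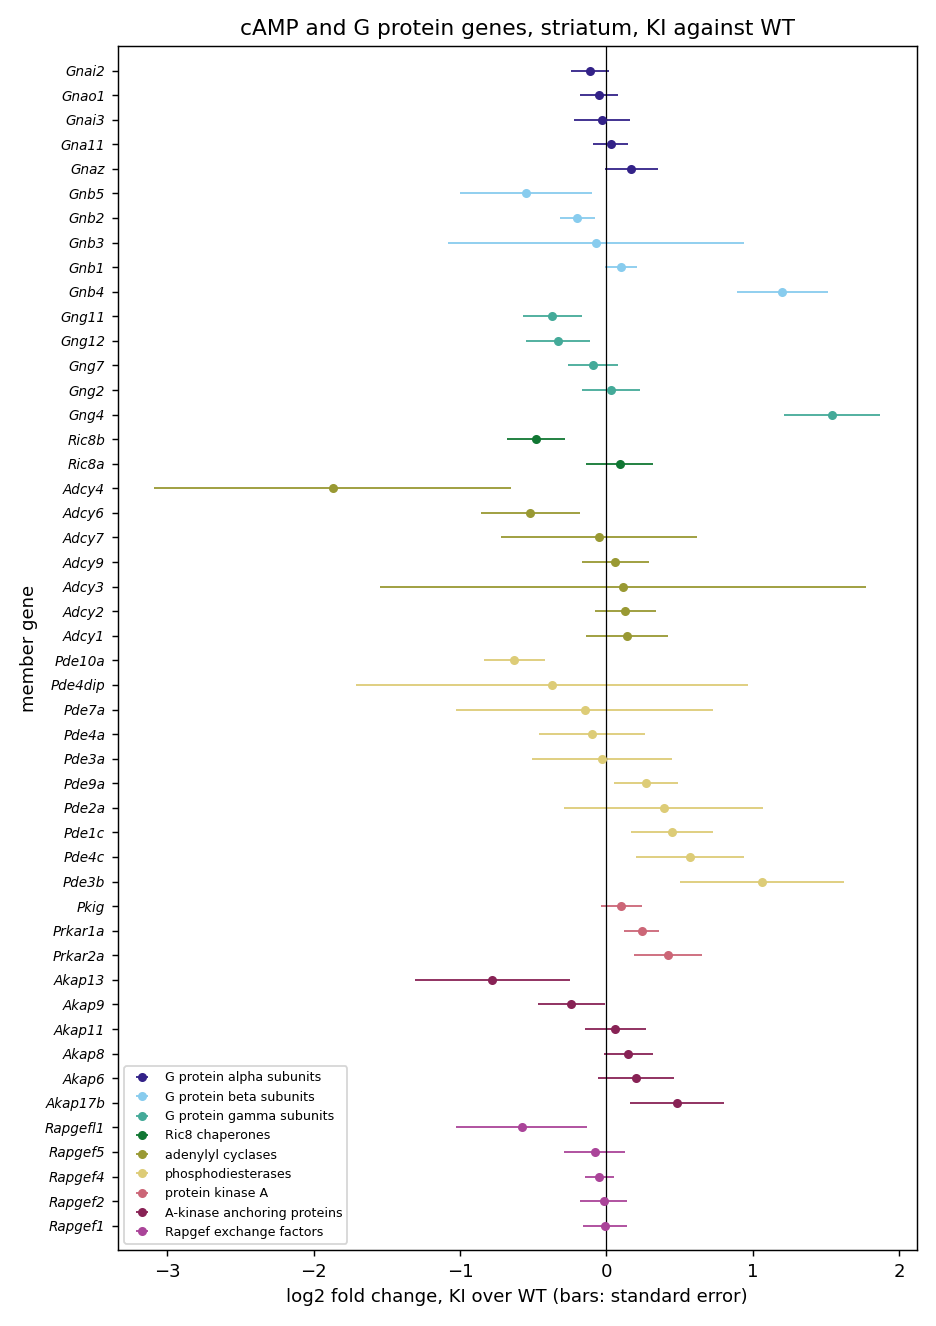
Points give the log2 fold change of KI over WT for each of the 48 tested members, coloured by step of the pathway, with the standard error as bars. The members lie on both sides of 0, from -1.87 for Adcy4 to 1.54 for Gng4.

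The precision differed widely between members. The standard error of the log2 fold change was at most 0.25 for 27 of the 48 members, and the 95% interval lay within -1 to 1 for 29. The narrowest was that of Rapgef4, from -0.28 to 0.17, and among the widest was that of Adcy3, from -3.49 to 3.70.

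**Figure D3:**
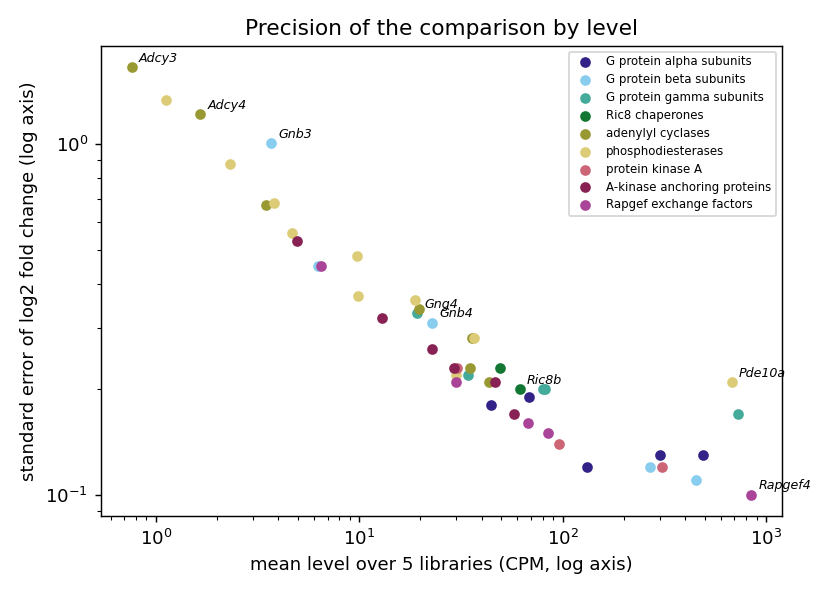
Each point is 1 tested member, placed by its mean CPM over the 5 libraries and by the standard error of its log2 fold change (both log axes), coloured by step. Adcy3 at a mean of 0.761 CPM had a standard error of 1.66, and Rapgef4 at 844.5 CPM had 0.10.

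Among the 8 alpha subunits with a feature, 5 were tested and all 5 lay within 0.25 of 0 on their longest stretch. Gnao1, the most abundant brain alpha subunit of the inhibitory Gi/o family, was at 420.7, 562.2 and 513.2 CPM in WT and at 469.3 and 493.5 in KI (chromosome 8, 93809966 to 93969388). The KI libraries fell inside the WT range, and the log2 fold change was -0.05 (SE 0.13). Gnai2, another inhibitory subunit, was at 352.0, 286.8 and 292.4 CPM in WT and at 300.7 and 275.1 in KI. Its groups overlapped too (-0.11, SE 0.13). Gnai3 had -0.03 (SE 0.19) on its longest stretch, in noncoding 3′ exon. On a second one of 265 coding bases it was at 47.3, 43.7 and 44.1 CPM in WT and at 36.2 and 39 in KI. There the groups were apart on the lower side (-0.26, SE 0.18, edgeR adjusted p = 0.951).

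Gnaz, an inhibitory subunit resistant to pertussis toxin, was at 41, 39.7 and 46.2 CPM in WT and at 46.5 and 49 in KI. Both KI libraries lay above the WT libraries, KI replicate 1 by a small margin, at a fitted difference of 0.17 on the log2 scale (SE 0.18, edgeR adjusted p = 0.999). Gna11, which acts on phospholipase C, had 0.03 (SE 0.12). Gnas, the gene of the stimulatory subunit, was read only on 1190 coding bases in exons of 6 of its 16 coding transcripts. Counts there were 0, 0 and 3 in WT and 8 and 18 in KI, below the filter, and no fold is given. Transcripts without these exons were not read, so these counts are no level of the stimulatory subunit as a whole. Gnat2 had at most 11 counts in a library and Gnat3 had 0 in each. Both are sensory alpha subunits, of cone photoreceptors and taste cells. Gnai1 and Gnaq had no feature over their exons, and Gnal shared its feature with 2 other genes.

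All 5 beta subunits were tested. Gnb4, a relative of Gnb1, was at 19.6, 12.4 and 13.3 CPM in WT and at 23.9 and 45.5 in KI. The groups did not overlap, and KI replicate 3 was the higher of the KI pair. The gene lies on chromosome 3 from 32580332 to 32616585 on the minus strand, and 846 of its 12692 exon bases were covered by a feature labelled Mfn1. None of the covered bases is coding. Of the feature's 6114 bases, 1275 lie in introns of Gnb4 and 3993 outside the gene, so counts from there enter the value. The log2 fold change was 1.20 (SE 0.31, 95% interval 0.53 to 1.87), from means of 15.1 ± 3.95 CPM in WT (SD, n = 3) and 34.7 ± 15.3 in KI (SD, n = 2). This is 2.30-fold, with an edgeR adjusted p of 0.208.

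The Gnb4 value depended on single libraries. Without KI replicate 3, the library with the high choroid plexus markers, it was 0.66, and with the Slc17a7 level as a covariate it was 0.43. Slc17a7 itself had a log2 fold change of -1.69 (SE 0.54, groups overlapping). The covariate can therefore take up part of a genotype difference, here and in the other values given with it. Without WT replicate 1 the Gnb4 value passed the threshold, at 1.44 (edgeR adjusted p = 0.0296). The part of other cell types in this difference was not tested.

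Gnb1, the main beta subunit of brain, was at 434.2, 412.2 and 473.3 CPM in WT and at 474.1 and 466.8 in KI (0.10, SE 0.11). WT replicate 3 lay between the KI libraries. Gnb2, its close relative, was at 266.7, 283.0 and 301.6 CPM in WT and at 242.4 and 253.1 in KI. Both KI libraries lay below the WT range, by a small margin (-0.20, SE 0.12, edgeR adjusted p = 0.884). Gnb5, which pairs with the RGS7 family rather than with most gamma subunits, was read on 38 bases at 6.41, 6.53 and 8.7 CPM in WT and at 5.13 and 4.69 in KI. These groups were apart as well, with a wide interval (-0.55, 95% interval -1.53 to 0.43). Gnb3 was at 9.82 CPM in WT replicate 1 and at 0.267 to 3.95 CPM in the other libraries, with a standard error of 1.01. Without WT replicate 1 its value of -0.07 became 2.27.

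Of the gamma subunits, 5 of 6 were tested. Gng4, a gamma subunit found mainly in the nervous system, was at 8.64, 14.8 and 9.15 CPM in WT and at 41.1 and 22.2 in KI. Both KI libraries exceeded every WT library, and KI replicate 1 was the higher of the pair. It had the highest log2 fold change and the smallest p of the 48 members, at 1.54 (SE 0.33, 95% interval 0.82 to 2.26) or 2.90-fold, with an edgeR adjusted p of 0.0996. The means were 31.6 ± 13.3 CPM in KI (SD, n = 2) and 10.9 ± 3.41 in WT (SD, n = 3).

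Gng4 lies on chromosome 13 from 13784059 to 13827896 on the plus strand. The feature, labelled Lyst, covers 174 bases after the coding region and an exon of the noncoding Gm47884. Of its 17459 bases, 6184 lie in introns of Gng4 and 11101 outside the gene, so counts from there enter the value. DESeq2 gave an adjusted p of 0.0117, and limma voom 0.0882. Leaving out KI replicate 1 gave 1.03 (adjusted p = 0.759), leaving out KI replicate 3 gave 1.92 (0.142), and with the Slc17a7 covariate the value was 2.19 (0.333). Hypothalamic and ventral forebrain markers, a list written after the data were seen (4 of 15 with a feature, none past the threshold), summed to 60.9, 41.4 and 56.9 CPM in WT and to 102.4 and 72.3 in KI. Of these 4, Calcr was at 4.71, 0 and 2.29 CPM in WT and at 16.9 and 12.6 in KI, and Lhx8 lay apart in the same direction. Their part in the Gng4 value was not tested.

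**Figure D4:**
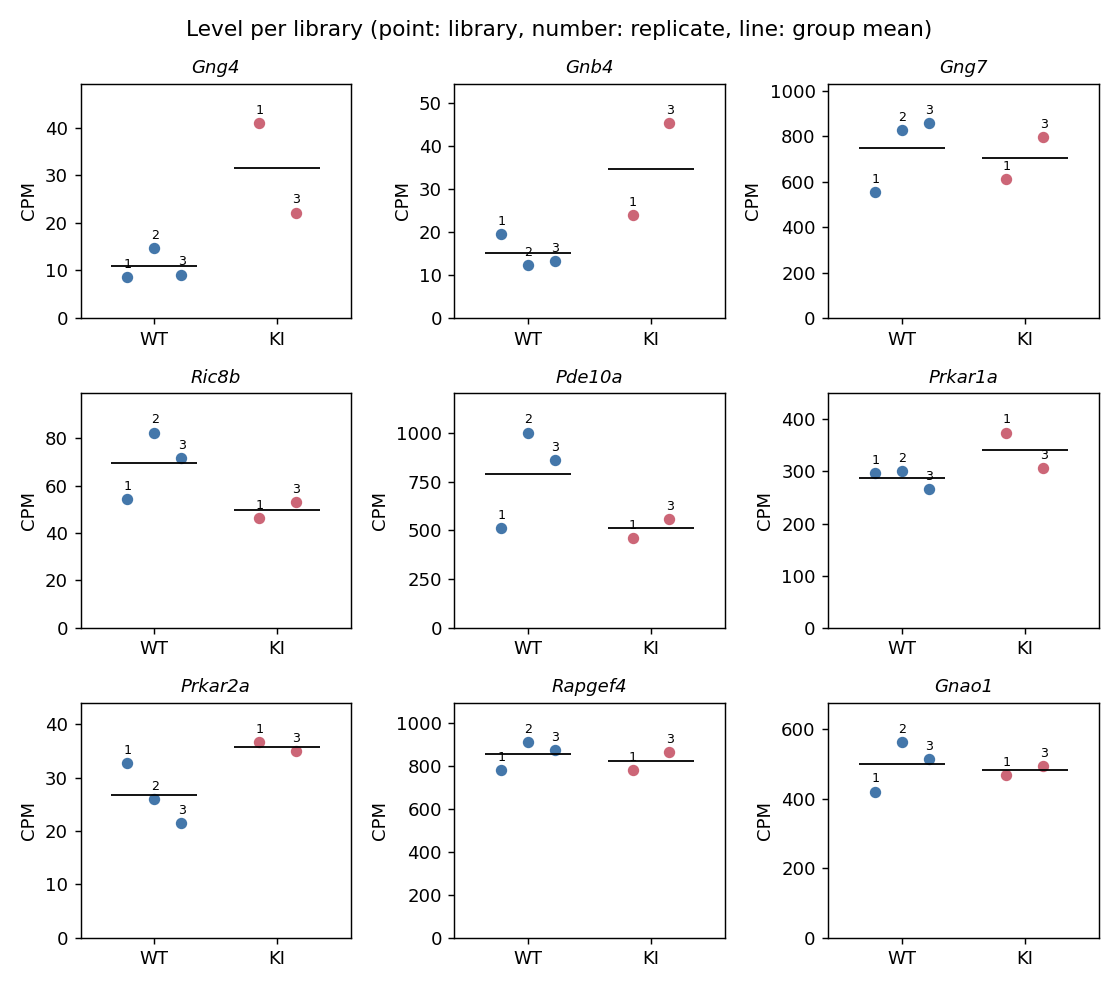
Each panel gives the CPM of 1 member in the 3 WT (blue) and 2 KI (red) libraries, with the replicate number beside each point and the group mean as a line (axes start at 0). The groups are apart for Gng4, Gnb4, Ric8b, Prkar1a and Prkar2a and overlap for Gng7, Pde10a, Rapgef4 and Gnao1.

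Gng7, the gamma subunit that forms the striatal olfactory-type G protein with Gnal, was at 555.4, 828.7 and 859.0 CPM in WT and at 611.2 and 794.6 in KI. WT replicate 1 was the lowest of all 5 libraries, and both KI libraries lay below the other WT libraries. The log2 fold change was -0.09 (SE 0.17, 95% interval -0.45 to 0.28), and without both WT replicate 1 and KI replicate 3 it was -0.47 (adjusted p = 1.58e-06, with the spread from 2 WT libraries alone). Gng11, a farnesylated gamma subunit read over 100% of its exons, was at 112.6, 67.4 and 85.6 CPM in WT and at 68.3 and 68.6 in KI. The KI libraries lay at the low end of the WT range (-0.37, SE 0.20). Gng12 was at 32.7 to 41.9 CPM in WT and at 32.3 and 26.8 in KI, apart by a small margin (-0.33, SE 0.22), and Gng2 had 0.03 (SE 0.20). Gng2-ps1, a processed pseudogene, had 0 counts in every library.

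Ric8a and Ric8b are chaperones that fold newly made alpha subunits, Ric8b those of the stimulatory and olfactory type. Ric8b was at 54.5, 82.5 and 71.8 CPM in WT and at 46.5 and 53.2 in KI. Both KI libraries lay below the WT range, KI replicate 3 just under WT replicate 1. The feature covers 145 coding bases. Of its 3340 bases, 2444 lie in introns of Ric8b and 751 outside the gene, so counts from there enter the level. The log2 fold change was -0.48 (SE 0.20, 95% interval -0.90 to -0.06), or 1.40-fold lower, with an edgeR adjusted p of 0.679 (chromosome 10, 84917616 to 85018337, plus strand). Without WT replicate 1 and KI replicate 3 together it was -0.73 (adjusted p = 0.0294, spread from 2 WT libraries alone), and with the Slc17a7 covariate -0.28. Ric8a, which serves the inhibitory and Gq-type subunits, was at 33.1 to 57 CPM in WT and at 53.7 and 49 in KI (0.09, SE 0.23).

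None of the 7 adenylyl cyclases with a feature had an unadjusted p under 0.05, and 5 of them lay within 0.25 of 0. Adcy1, the calmodulin-activated cyclase of cortex and hippocampus, was at 27.5, 26.1 and 49.3 CPM in WT and at 42.7 and 33 in KI (0.14, SE 0.28). Adcy2, a cyclase stimulated by beta-gamma subunits, was at 46.5, 39.6 and 39.4 CPM in WT and at 54.2 and 37.3 in KI (0.13, SE 0.21). Adcy9, a widely expressed cyclase that responds little to forskolin, was at 25.9, 36.1 and 42.1 CPM in WT and at 38.6 and 33.4 in KI (0.06, SE 0.23). In all 3 the genotypes overlapped on these stretches. On a second stretch of 234 coding bases Adcy2 was at 58, 53.4 and 52.2 CPM in WT and at 58.7 and 58.9 in KI, apart by a small margin (0.11, SE 0.16).

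Adcy6, the closest relative of Adcy5 and likewise inhibited by calcium, was at 32.2, 13.9 and 21.2 CPM in WT and at 17.6 and 13.8 in KI. WT replicate 1 was the high library, and the groups overlapped (-0.52, SE 0.34, 95% interval -1.26 to 0.22). Without WT replicate 1 the value was -0.15, and without KI replicate 3 in addition it was 0.00. Adcy4 was read on 35 bases at 1.2 to 3.53 CPM in WT and at 0.135 and 1.11 in KI, from 1 to 27 counts a library (-1.87, SE 1.22). Without KI replicate 1 it was -1.07 and without KI replicate 3 -3.95. Adcy7 had -0.05 (SE 0.67), and Adcy3, a cyclase of neuronal cilia, had at most 12 counts in a library over exons of no coding transcript (0.11, and -1.52 without KI replicate 1). Adcy8 had no feature over its exons.

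The Pde symbols gave the most members, 16 with 10 tested, among them Pde4dip, which encodes a scaffold protein that binds phosphodiesterases and is no such enzyme itself. Pde10a, which hydrolyses both cAMP and cGMP and is enriched in spiny projection neurons, was at 509.9, 1002 and 861.6 CPM in WT and at 461.7 and 559.2 in KI. WT replicate 1 lay between the KI libraries, and the other WT libraries were above both. The log2 fold change was -0.63 (SE 0.21, 95% interval -1.09 to -0.18), or 1.55-fold lower, with an unadjusted p of 0.0104 and an edgeR adjusted p of 0.476. The means were 510.5 ± 68.9 CPM in KI (SD, n = 2) and 791.1 ± 253.5 in WT (SD, n = 3). The gene lies on chromosome 17 from 8525372 to 8986648, and 556 bases of exon after the coding region, in 2 of its 8 coding transcripts, were read.

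WT replicate 1, the WT library with the least Pde10a, also had the fewest cortical markers, at 82.2 CPM against 322.4 and 245.8 in WT replicates 2 and 3. In KI the order was the other way, with 110.2 CPM of cortical markers in replicate 1 and 27.8 in replicate 3. With the Slc17a7 level as a covariate, which itself had a log2 fold change of -1.69, the Pde10a value was -0.26 (SE 0.31). Without WT replicate 1 it was -0.86 (edgeR adjusted p = 0.000319). Without KI replicate 3 as well it was -1.01, from 2 WT libraries and 1 KI library that is assumed to vary like the WT ones. Without the filter on low counts it also passed the threshold at an unchanged fold change (edgeR adjusted p = 6.04e-05). It did not pass by DESeq2 (-0.63, SE 0.36, adjusted p = 0.777) or by limma voom (-0.57, adjusted p = 0.462). Nor did it pass with any other single library left out (-0.78 to -0.42, edgeR adjusted p 0.729 to 0.998). Spiny projection neuron markers as a sum, mostly Penk, were lower in both KI libraries than in any WT library. Of the 7 tested, 4 lay above 0 (Tac1 0.14, Arpp21 0.22, Rarb 0.21 and Ebf1 0.10), with a median log2 fold change of 0.10. Rarb and Ebf1 were at only 1.53 to 6.13 CPM. Below 0 were Penk at -0.41, Foxp1 at -0.29 and Rgs9 at -1.03, with the groups apart for Penk and Rgs9. The part of either marker list in the Pde10a value was not tested.

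**Figure D5:**
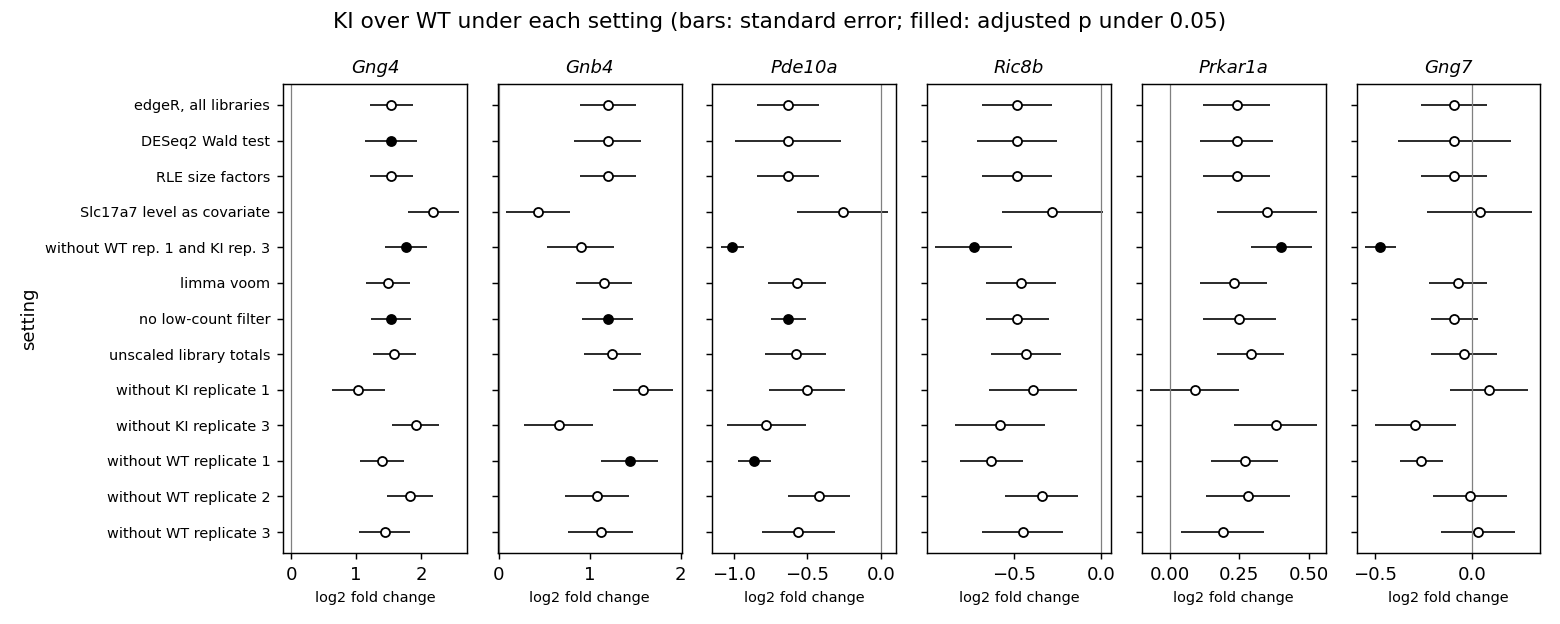
Points give the log2 fold change of KI over WT for 6 members under each setting of the test, with standard errors as bars and filled points for an adjusted p under 0.05. Gng4 and Gnb4 stay above 0 and Pde10a and Ric8b below 0 in every setting drawn, while Gng7 lies on both sides, from -0.47 to 0.09.

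Pde1c, a calmodulin-activated phosphodiesterase, was at 20.4, 44.2 and 31.3 CPM in WT and at 39.2 and 48.1 in KI, with overlapping groups (0.45, SE 0.28). Pde3b, inhibited by cGMP, was at 2.23, 4.8 and 2.75 CPM in WT and at 5.27 and 8.39 in KI. Its groups were apart at 17 to 68 counts a library (1.06, SE 0.56, edgeR adjusted p = 0.834). The other members on the higher side were Pde4c, a cAMP-specific enzyme at 7.06 to 9.15 CPM in WT and at 9.32 and 15.2 in KI, and Pde9a, a cGMP-specific enzyme at 24.1 to 29.9 CPM in WT and at 35.4 and 31.1 in KI. Pde9a had 0.27 (SE 0.22) on its longest stretch and 0.44 on another, and Pde4c 0.57 (SE 0.37) and -0.09.

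Pde4a, a cAMP-specific enzyme, was at 10.3, 24.3 and 23.3 CPM in WT and at 15.1 and 20.7 in KI (-0.10, SE 0.36). On a second stretch of 223 coding bases it was at 43.3 to 51 CPM in WT and at 54.8 and 64.9 in KI (0.34, SE 0.17). The 2 stretches thus differed in sign, and neither passed the threshold. Pde2a, activated by cGMP, was at 1.7 to 4.93 CPM in WT and at 2.57 and 6.29 in KI, on exons of no coding transcript (0.39, SE 0.68, and -0.39 without KI replicate 3). Pde3a, Pde7a and Pde4dip had -0.03, -0.15 and -0.37 with standard errors of 0.48, 0.88 and 1.34. Below the filter were Pde4d with 0 counts over 121 bases, Pde5a with at most 12 counts a library, and the photoreceptor genes Pde6a, Pde6b, Pde6c and Pde6h with at most 8. Pde1b, Pde4b, Pde7b and Pde8b had no feature over their exons.

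For protein kinase A, 2 regulatory subunits and 1 inhibitor were tested, and all 3 had fitted values above 0. Prkar1a, the type I regulatory subunit with the full element in some of its promoter windows, was at 296.4, 301.6 and 265.7 CPM in WT and at 374.6 and 307.2 in KI. Both KI libraries lay above the WT range, KI replicate 3 by a small margin. The log2 fold change was 0.24 (SE 0.12, 95% interval -0.02 to 0.51, edgeR adjusted p = 0.833; chromosome 11, 109649405 to 109669656). Without KI replicate 1 it was 0.09, and without WT replicate 1 and KI replicate 3 it was 0.40 (adjusted p = 0.00769, spread from 2 WT libraries alone).

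Prkar2a, a type II regulatory subunit, was at 32.7, 25.9 and 21.4 CPM in WT and at 36.6 and 34.9 in KI. The groups were apart (0.42, SE 0.23, edgeR adjusted p = 0.863). It was read on 4 features, with log2 fold changes of 0.42, 0.69, 0.73 and 0.16, and the groups were apart on the first 3, although a fragment can be counted on more than 1 of them. Pkig, which encodes an inhibitor of the catalytic subunit, was at 88.1, 100 and 94 CPM in WT and at 102.4 and 98.9 in KI (0.10, SE 0.14). Of the catalytic subunits, Prkacb had no feature and Prkaca shared its feature with 2 other genes. Pkia and Prkar1b had no feature over their exons either.

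A-kinase anchoring proteins hold protein kinase A at defined sites in the cell, and 6 of 7 were tested. Akap9, at the Golgi and centrosome, was at 25.5, 33.7 and 34.2 CPM in WT and at 28.2 and 24.3 in KI (-0.24, SE 0.23). Akap11, which also binds glycogen synthase kinase 3, was at 34.4, 53.2 and 49.9 CPM in WT and at 51.7 and 43.9 in KI (0.06, SE 0.21). Both overlapped between the genotypes. Akap13 was at 7.59, 5.86 and 4.42 CPM in WT and at 3.38 and 3.58 in KI, apart on the lower side with a wide error (-0.78, SE 0.53). Akap17b had 0.48 (SE 0.32), Akap6 0.20 (SE 0.26) and Akap8 0.15 (SE 0.17), all with overlapping groups.

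Akap1, the mitochondrial anchor, was below the filter on its longest stretch of 68 bases. On a second stretch of 66 coding bases it was at 48.3, 41.8 and 58.3 CPM in WT and at 34.4 and 31.7 in KI. There the groups were apart on the lower side (-0.58, SE 0.20, edgeR adjusted p = 0.515).

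The Rapgef factors activate the small G protein Rap, and Rapgef3 and Rapgef4 do so on binding cAMP. On their longest stretch all 5 tested had fitted values below 0, from -0.58 to -0.01. Rapgef4, known as Epac2 and the brain form, was at 784.5, 911.4 and 875.8 CPM in WT and at 784.5 and 866.3 in KI. The KI libraries lay inside the WT range, and the log2 fold change of -0.05 had the smallest error of all members (SE 0.10). Rapgef1, which is activated through Crk adaptors, was at 80.1 to 90.5 CPM in WT and at 90.3 and 79 in KI (-0.01, SE 0.15). Rapgef2 had -0.02 (SE 0.16) on its longest stretch. On a second one of 84 coding bases it was at 2.36, 2.27 and 2.14 CPM in WT and at 7.43 and 4.32 in KI. There the groups were apart on the higher side at a low level (1.37, SE 0.61, edgeR adjusted p = 0.752). With unscaled library totals Rapgef1 and Rapgef2 had 0.04 and 0.03. Rapgefl1 was at 6.81, 7.2 and 8.39 CPM in WT and at 3.92 and 6.05 in KI, apart at 29 to 55 counts a library (-0.58, SE 0.45). Rapgef5 had -0.08 (SE 0.21), and Rapgef6 was below the filter with 0 counts over 468 bases of no coding transcript. On a second stretch of 165 coding bases Rapgef6 was at 7.07, 7.73 and 7.47 CPM in WT and at 6.48 and 11.2 in KI (0.26, SE 0.40), and on one of 22 bases it had 0.08 (SE 0.56).

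Levels of different genes were compared per kilobase of covered exon for the 15 tested members with at least 500 covered bases. Pde10a stood highest, at a mean of 1221 CPM per kilobase, and its lowest library (830.4) was above the highest of Gnai2 (328.4), which came next at a mean of 281.2. The lowest library of Gnai2 (256.6) was in turn above the highest of Gng2 (156.8). Gng2 followed at 126.8, Rapgef1 at 105.1, Gng11 at 87.6, Ric8a at 76.8, Gnai3 at 64.9 and Prkar2a at 57.4 CPM per kilobase. From Gng2 down to Prkar2a each gene's libraries overlapped those of its neighbour in this order. Gnb4 at 27.1, Pde3a at 12.8, Pde4a at 12.6, Pde1c at 7.34, Pde4c at 5.97, Gnb3 at 4.16 and Pde4dip at 1.57 CPM per kilobase were lower. Several of these stretches lie in noncoding exon used by only some transcripts, and introns in the same feature can add fragments.

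Of the 60 members, 16 had at least 2 tested features, and the first 2 features had the same sign in 6 of those 16. None of the 23 further tested features of members passed the threshold. Among them, unadjusted edgeR p-values under 0.05 were those of Akap1 (0.0134), Prkar2a (0.0403 and 0.0222) and Rapgef2 (0.0419). Of all tested features, 6.39% had such a p.

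Around the machinery, 79 other genes of the pathway were listed by role (receptors, receptor kinases and arrestins, RGS proteins, kinase targets, transcription factors, channels, calcium and cyclase modulators). A feature was found for 33 and 30 were tested. None passed the edgeR threshold, 11 lay above 0 and 19 below, the median was -0.09, and the groups were apart for 10 of 30 (22.4% of all features). The 4 with the smallest adjusted p were Rgs10 at 0.74 (0.0512), Rgs9 at -1.03 (0.0636), Crem at 0.97 (0.0636) and Rgs6 at 1.05 (0.0931), each with the groups apart. Rgs9 and its relative Rgs6 speed the turning off of alpha subunits in complex with Gnb5, and Crem is a factor bound to the cAMP response element. Calm2, which encodes calmodulin, the calcium sensor of Adcy1 and Pde1 enzymes, was at 1016, 1180 and 1149 CPM in WT and at 866.5 and 862.8 in KI, on 31 covered bases (-0.37, SE 0.10, edgeR adjusted p = 0.248). Both KI libraries lay below the WT range. Rgs7bp, which anchors RGS7 family complexes with Gnb5 at the membrane, was at 142.9, 171.1 and 200.3 CPM in WT and at 129.8 and 132.2 in KI (-0.39, SE 0.15, edgeR adjusted p = 0.62). Hcn2, a channel opened by cAMP, was at 186.9 to 246.2 CPM in WT and at 193.5 and 200.3 in KI, inside the WT range (-0.13, SE 0.14).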

How the data were processed

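RNA of striatal homogenates was sequenced from libraries prepared, per the labels' protocols, with a kit that marks strand. The deposited values are raw counts of fragments per gene feature, which, per the file headers, featureCounts 2.0.1 made on the Ensembl 103 annotation of GRCm39. Strand was ignored, fragments were assigned to every feature they overlapped and multi-mapped reads were not counted, per the same headers. The aligner is not given in the sources used here, nor is the build it used. Groups and replicate numbers come from the titles.

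Features were laid over GENCODE M21 (GRCm38) exons by numeric position with bedtools 2.31.1, with no conversion of coordinates, because counts fall at GRCm38 positions. A feature took the name of the sole gene there or the sole protein-coding gene, and the largest overlap represents a gene. This named 16422 of 53700 features (57.63% of the counts). Features over several genes held 41.31% of the counts and those over none 1.057%, and neither kind counts as a member. Names at a position do not show which gene a fragment came from where a feature also spans introns or neighbours.

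KI was compared with WT by edgeR 4.0.16 (R 4.3.3): filterByExpr, TMM scaling, quasi-likelihood F-test, Benjamini-Hochberg adjustment over all 13665 tested features, threshold 0.05. The common biological coefficient of variation was 29.8%. With 3 and 2 libraries, an absence of counts leaves room for 0.379 to 0.455 CPM by library (3 counts, counting error only). Intervals are 95% intervals of the fitted log2 fold change. Alternatives were DESeq2 1.42.0, limma voom (limma 3.58.1), other scalings, no filter, a covariate, a replicate block, libraries left out, and other choices of feature. The test was also run on simulated counts with known changes, drawn with the common coefficient of variation for every feature. The outcome of that run is not given here. Promoter sequences are from RefSeq (GRCm38.p6).

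The members and lists were chosen with earlier results of these data known. The genes named follow a rule: any member past the threshold, the 3 with the smallest p and the 2 with the highest level per kilobase in each step, and members known for the striatum. Other members are given by values, counts or ranges. A further gene of the pathway list is not reported here.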

Additional observations from a re-analysis of the deposited data

How the results depend on the processing

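The values rest on 2 KI and 3 WT libraries and on covered stretches of 35 to 4992 bases, and genes such as Adcy5 were not read. The count of changed features was 14, and it was 123 by DESeq2, 51 by limma voom, 183 without the low-count filter, 67 at a false discovery rate of 0.10, 2 with the Slc17a7 covariate, 153 with the replicate block, 525 without WT replicate 1 and KI replicate 3 (chosen after seeing the data), and 2 to 162 with 1 library left out. The count of changed members was 0, and it was 1 by DESeq2, 1 at a false discovery rate of 0.10, 1 with the replicate block (Gng4, adjusted p = 0.00536; 1.12% of features), 3 without the filter, 5 without those 2 libraries (Gng4, Gng7, Ric8b, Pde10a and Prkar1a) and 0 to 2 with 1 library left out. It stayed at 0 by limma voom, with the other scalings, with the covariate, over the 40 members alone on their feature and over the 31 with at least 200 covered bases. Replicate numbers 1 and 3 occur in both groups, and the titles do not say whether they pair libraries. Deviations correlated at 0.135 (WT 1 with KI 1) and 0.087 (WT 3 with KI 3). With 2 KI libraries the deviations of KI 1 and KI 3 mirror each other (-0.135 for WT 1 with KI 3). These values therefore cannot decide whether the libraries are paired.

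Across alternatives for the named members, 489 values kept their sign and side of the threshold, 13 newly passed it and 65 changed sign. Among the 13 is Gng4 at an edgeR adjusted p of 0.0996, which passed only where the threshold was raised to 0.10. That setting leaves the fitted values unchanged, so no sign could change there. The cause of the changes was not tested. Changes of sign were, with the Slc17a7 covariate, Gnao1 0.11, Gng2 -0.01, Gng7 0.04, Pde3a 0.70, Pde4a 0.33, Akap9 0.06, Rapgef1 0.13 and Rapgef2 0.04; with the replicate block, Gnao1 0.05, Gng2 -0.08, Gng7 0.01 and Pde4a 0.17; by limma voom, Gnb3 1.14, Pde3a 0.06 and Pde4a 0.00; with unscaled totals, Gnai3 0.02, Pde3a 0.01, Rapgef1 0.04 and Rapgef2 0.03. On the next feature of the gene they were Gnao1 0.04, Adcy1 -0.06, Adcy9 -0.19, Pde4a 0.34, Rapgef1 0.24 and Rapgef2 1.37. Without WT replicate 1 and KI replicate 3 they were Gnai2 0.05, Gnai3 0.25, Gnb3 2.11, Adcy6 0.00, Adcy9 -0.02, Pde2a -0.72, Pde3a 0.10 and Rapgef1 0.04. With 1 library left out, values ranged from -0.16 to 0.16 for Gnai3, -0.15 to 0.05 for Gnao1, -0.62 to 2.27 for Gnb3, -0.23 to 0.26 for Gng2, -0.29 to 0.09 for Gng7, -0.12 to 0.23 for Ric8a, -0.06 to 0.50 for Adcy1, -0.17 to 0.37 for Adcy2, -1.52 to 0.86 for Adcy3, -0.11 to 0.22 for Adcy9, -0.39 to 0.89 for Pde2a, -0.56 to 0.54 for Pde3a, -0.40 to 0.10 for Pde4a, -0.10 to 0.19 for Akap11, -0.11 to 0.08 for Rapgef1, -0.06 to 0.05 for Rapgef2 and -0.13 to 0.01 for Rapgef4.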

Other observations

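Genes of the machinery that share a feature with other genes cannot be read alone, and the values below are those of the shared features. Gnal, the olfactory-type alpha subunit, lies with Chmp1b and a further gene on a feature at 534.6, 756.5 and 708.3 CPM in WT and at 637.7 and 797.0 in KI (log2 fold change 0.11, SE 0.15). WT replicate 1 was the lowest there, as it was for Gng7. Prkaca, a catalytic subunit of protein kinase A, lies with Asf1b and Samd1 at 299.9 to 407.4 CPM in WT and at 351.5 and 316.9 in KI (-0.05, SE 0.14). Prkar2b, the type II regulatory subunit enriched in brain, lies with Cog5 and Hbp1 at 90 to 97.2 CPM in WT and at 95.6 and 95.8 in KI (0.02, SE 0.14). Akap5, the anchor at the postsynaptic membrane, lies with Mthfd1 and Zbtb25 at 155.8 to 196.0 CPM in WT and at 156.7 and 179.8 in KI (-0.03, SE 0.14). Rapgef3, known as Epac1, lies with Hdac7 at 39.6 to 65.6 CPM in WT and at 52.4 and 49.4 in KI (-0.11, SE 0.21). The groups overlapped in all 5, and none passed the edgeR threshold.

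A feature that holds Akap2, with Pakap, was at 690.1 CPM in WT replicate 1 and 516.7 in KI replicate 1 against 248.8 to 311.2 in the other 3 libraries, and a second one that also holds Palm2 was at 712.2 and 548.4 against 272.3 to 337.9. The thalamic marker sums were also highest in those libraries, at 316.3 and 170.7 CPM against 58 to 82.8, and their part in the Akap2 values was not tested.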
